A study of Mus musculus with 2 samples.

Results

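The family of miR-130 and miR-301 was described in miRNA counts from mouse keratinocytes. Its 8 members were taken by name from 1477 miRNA names found in either library: mmu-miR-130a-3p, mmu-miR-130a-5p, mmu-miR-130b-3p, mmu-miR-130b-5p, mmu-miR-301a-3p, mmu-miR-301a-5p, mmu-miR-301b-3p and mmu-miR-301b-5p. The prefix for mouse is dropped in what follows. Of the 8, 7 were counted in at least 1 library and 5 in both. A member not listed for a library was set to 0 there.

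The study has 1 condition and 2 replicate libraries. Skin keratinocytes grown in low-calcium medium carried exogenous desmoplakin (Dsp) fused to BirA, a biotin ligase, and received biotin. Desmoplakin is a protein of the desmosomal plaque, which anchors intermediate filaments at cell junctions, and the fusion was used to find what Argonaute proteins do there. Biotin-labelled proteins were captured on streptavidin with their RNA, and linkers were ligated as in CLEAR-CLIP, which can join a miRNA to the RNA it pairs with. The labels call the RNA cytoplasmic. No control without the fusion, without biotin or without capture was analysed here, so the values describe recovery and not enrichment at the plaque. The labels do not say whether the replicates came from separate cultures, so every difference between them may be technical.

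A miRNA is cut as a duplex from a hairpin, and usually one strand, or arm, stays in Argonaute as the guide. The guide pairs with target RNAs mainly through its seed, bases 2 to 8 from the 5′ end, and lowers their translation and stability. The 3p strands of the family of miR-130 and miR-301 share a seed and are the usual guides, with Pparg among the targets reported for them. Targets were not measured in the tables used here.

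RefSeq (GRCm38.p6, which is mm10) gave sequences for 7 of the 8 members, and miR-301b-3p is named only. The 3p strands are shown because they carried nearly all of the family's counts. Capitals mark the seed.
miR-301a-3p: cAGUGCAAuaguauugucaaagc
miR-130a-3p: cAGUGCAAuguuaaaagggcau
miR-130b-3p: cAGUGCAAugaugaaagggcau
All 3 held the seed AGUGCAA and began with the same 9 bases. miR-130a-3p and miR-130b-3p were identical at 20 of 22 bases and differed by U11A and A13G, with positions counted from the 5′ end and the base of miR-130a-3p given before that of miR-130b-3p. How the authors assigned reads that match more than one name is not given in the sources used here, so the split within such pairs is uncertain.

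The 5p strands are shown for contrast, again with bases 2 to 8 in capitals.
miR-301a-5p: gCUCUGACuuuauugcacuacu
miR-301b-5p: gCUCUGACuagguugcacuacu
miR-130b-5p: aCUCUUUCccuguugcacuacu
miR-130a-5p: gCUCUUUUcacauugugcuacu
These fell into 3 seeds, with a single seed for the pair from miR-301a and miR-301b. That pair differed by U10A, U11G and A12G, the base of miR-301a-5p given before that of miR-301b-5p. All 4 ended in CUACU. The reverse complement of the 3p seed, UUGCACU, stood at base 13 of miR-130b-5p, miR-301a-5p and miR-301b-5p and was not found in miR-130a-5p. Searched as written on the RNA strand alone, UUGCACU occurred in 14 of 1005 mouse hairpins (1.39%) and AGUGCAA in 12 (1.19%). A match describes letters and not pairing.

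The hairpins below show where the arms lie, with both mature strands in capitals, the 5p strand before the 3p strand.
Mir130a hairpin: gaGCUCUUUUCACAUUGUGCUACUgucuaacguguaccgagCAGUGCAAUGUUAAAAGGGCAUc
Mir130b hairpin: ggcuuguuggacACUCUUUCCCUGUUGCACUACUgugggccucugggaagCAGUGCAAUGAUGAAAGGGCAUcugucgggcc
Mir301 hairpin: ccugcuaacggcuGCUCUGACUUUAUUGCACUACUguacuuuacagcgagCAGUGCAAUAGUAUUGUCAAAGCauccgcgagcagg
Mir301, the gene of miR-301a, lies at chr11:87113004-87113089 on the plus strand, inside the span of Ska2, which encodes a protein of the spindle and kinetochore and runs on the same strand. Mir130b (chr16:17124061-17124142) and Mir301b (chr16:17124400-17124496) lie 257 bases apart on the minus strand, inside the span of 2610318N02Rik, which runs on the same strand. Mir130a (chr2:84741115-84741178, minus strand) lies inside no other listed gene, and its nearest neighbours are Gm19426 at 986 bases and Ypel4 at 2459 bases. The gene table gives spans only, so exons and introns were not told apart.

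The libraries held 3776893 (replicate 1) and 4122955 (replicate 2) miRNA counts. Levels are given as CPM, counts per 1000000 miRNA counts. For a name with a count of 0, up to 3 counts are allowed, which is 0.794 CPM in replicate 1 and 0.728 CPM in replicate 2. Intervals and these limits cover counting error only, since reads amplified by PCR are not independent molecules. The epithelial marker miRNAs, the miR-200 family, miR-141, miR-203 and miR-205, were counted in both libraries in all 7 cases and summed to 10.59% and 10.62% of counts. The lists for other tissues summed to between 0.000609% (blood) and 0.0516% (endothelium) of a library. For blood, 2 of 6 names were counted in both libraries. The blood list (6.09 and 17.7 CPM) and the mesenchymal list (24.9 and 101.1 CPM) were higher in replicate 2, and their part in the differences between the libraries was not tested. The chi-square between the libraries was 60.6 per degree of freedom, where counting error alone gives about 1, so they were kept as separate libraries.

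The family took the same small share of the miRNA counts in both libraries. Its members summed to 24347 counts in replicate 1 and 26533 in replicate 2. This was 0.645% (Wilson 95% interval 0.637% to 0.653%) and 0.644% (0.636% to 0.651%) of the totals, or 0.644% ± 0.000769 (SD, n = 2). The difference between the libraries was smaller than the counting error of either. Behind this constant sum, the members differed widely in level, and some split unevenly between the libraries. In a bulk lysate, the number of cells holding a miRNA and its amount per cell cannot be told apart.

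miR-301a-3p was the main member. It had 21510 counts in replicate 1 and 23138 in replicate 2, which is 5695 CPM (Wilson 95% interval 5620 to 5772) and 5612 CPM (5540 to 5685). It ranked 35 among all names in each library. The mean was 5654 ± 58.8 CPM (SD, n = 2), and the counting intervals of the libraries overlapped. It made up 88.6% and 87.5% of the 3p counts of the family.

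miR-130a-3p came next at 617 CPM (2330 counts) in replicate 1 and 747 CPM (3078 counts) in replicate 2, with a mean of 682 ± 91.7 CPM (SD, n = 2). It was higher in replicate 2, and its rank was 116 and 111. Its part of the 3p counts was 9.60% (Wilson 95% interval 9.23% to 9.98%) and 11.6% (11.3% to 12.0%). miR-301a-3p and miR-130a-3p, from genes on different chromosomes, together held 98.2% and 99.1% of the 3p counts.

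The 3p strands of the neighbouring genes Mir301b and Mir130b were rare. miR-301b-3p had 77.8 CPM (294 counts) in replicate 1 and 43.9 CPM (181 counts) in replicate 2, a mean of 60.9 ± 24.0 CPM (SD, n = 2). miR-130b-3p had 36.8 CPM (139 counts) and 12.6 CPM (52 counts), a mean of 24.7 ± 17.1 CPM. Both were lower in replicate 2, and every value of miR-301b-3p lay above every value of miR-130b-3p. All names from these genes summed to 1.78% of the family's counts in replicate 1 and 0.908% in replicate 2.

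**Figure D1:**
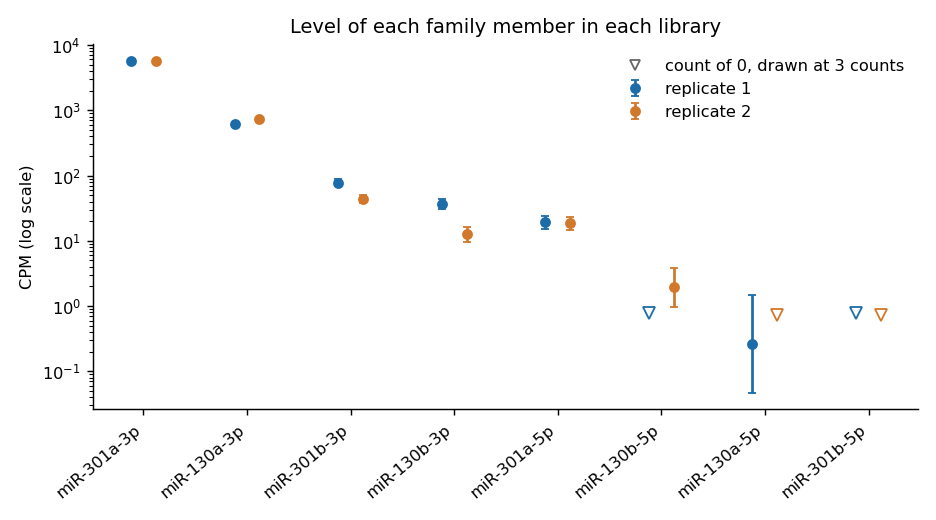
Level of each of the 8 members in CPM on a log axis, replicate 1 in blue and replicate 2 in orange, with Wilson 95% intervals of counting error; open triangles mark a count of 0 and are drawn at the 3 counts it allows. miR-301a-3p stood at 5695 and 5612 CPM, above miR-130a-3p at 617 and 747 CPM, and the 5p names stood at or below 19.3 CPM.

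The order of the 3p levels was miR-301a-3p, miR-130a-3p, miR-301b-3p and miR-130b-3p in each library. miR-301a-3p had 8.37 ± 1.21 times the counts of miR-130a-3p (SD, n = 2), with 9.23 in replicate 1 and 7.52 in replicate 2. miR-130a-3p had 7.93 and 17.0 times the counts of miR-301b-3p, and miR-301b-3p had 2.12 and 3.48 times those of miR-130b-3p, although their genes are neighbours. All 6 ratios between 3p members lay above 1 in both libraries, but those with the rare members moved between them, up to 155 and 445 for miR-301a-3p over miR-130b-3p. With 2 libraries, an exact sign-flip test cannot give a two-sided p below 0.5, so no test is attached. These are ratios of reads, and CPM is not divided by length; the mature strands shown are 22 or 23 bases long.

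The names next to each member in the order of mean CPM give its place in the whole profile. miR-301a-3p fell between miR-19b-3p (6191 ± 298 CPM), a guide of the miR-17-92 cluster, and miR-3473b (5360 ± 206 CPM; SD, n = 2). miR-130a-3p fell between miR-152-3p (691 ± 95.7 CPM) and miR-7a-5p (647.5 ± 8.79 CPM), whose values in the libraries overlapped its own. miR-301b-3p was level with miR-3473e (61.1 ± 20.3 CPM) and miR-7016-3p (59.0 ± 24.1 CPM), and miR-130b-3p with miR-491-5p (24.9 ± 12.1 CPM) and miR-325-5p (24.5 ± 19.3 CPM). The values of miR-301a-3p overlapped those of neither neighbour, while for the other 3 members the adjacent places did not differ beyond the spread between the libraries. Likeness of pattern could not be ranked over 2 libraries of a single condition.

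The 5p strands were near or below the limit of detection except for miR-301a-5p. miR-301a-5p, the partner of the main member, had 73 and 76 counts, or 19.3 and 18.4 CPM, and its level overlapped that of miR-130b-3p. miR-130b-5p had 0 counts in replicate 1 and 8 in replicate 2 (1.94 CPM). miR-130a-5p had 1 count in replicate 1 and 0 in replicate 2. miR-301b-5p was not listed in either library, which allows up to 0.794 and 0.728 CPM.

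The 3p arm therefore held 99.7% of the family's counts in both libraries (99.69% ± 0.00894; SD, n = 2). Of the miR-301a hairpin, the 3p arm took 99.66% (Wilson 95% interval 99.58% to 99.73%) in replicate 1 and 99.67% (99.59% to 99.74%) in replicate 2, or 295 and 304 reads for each 5p read. The miR-130a hairpin gave 99.96% (99.76% to 99.99%) in replicate 1, and in replicate 2 no 5p read among 3078, which allows a 5p share of up to 0.0975%. The strand whose seed is AGUGCAA was thus the counted strand of both hairpins.

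Arm usage was tested over the 164 hairpins whose 5p and 3p names were both counted and gave 100 or more counts per library, among them miR-301a and miR-130a. In both, the 3p arm was the larger in each library by an exact two-sided binomial test at an adjusted p of 0.05 (Benjamini-Hochberg). Over all tested hairpins 32.9% passed this test for the 3p arm and 58.5% for the 5p arm. A 3p share above 99% in both libraries, held by miR-301a and miR-130a, was found in 11.6% of the 164. By mean 3p share miR-130a ranked 2 and miR-301a ranked 12, against a median share of 22.8% over all. Hairpins with no read from an arm, or with arms listed under unlike base names, were left out. The ranks and the 11.6% therefore hold among the 164 only. miR-130a entered through 1 read of miR-130a-5p in replicate 1.

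The other hairpins of the family did not enter the test: the 5p name of miR-301b was counted in neither library, and miR-130b gave fewer than 100 counts in replicate 2. miR-301b gave 294 and 181 reads, none from the 5p arm, which allows 5p shares of up to 1.02% and 1.66%. miR-130b gave 139 reads in replicate 1, none from the 5p arm, and 60 in replicate 2, of which 86.7% came from the 3p arm (Wilson 95% interval 75.8% to 93.1%). The interval of replicate 2 lay below that of replicate 1 (97.3% to 100%), and this rests on 8 reads of miR-130b-5p.

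**Figure D2:**
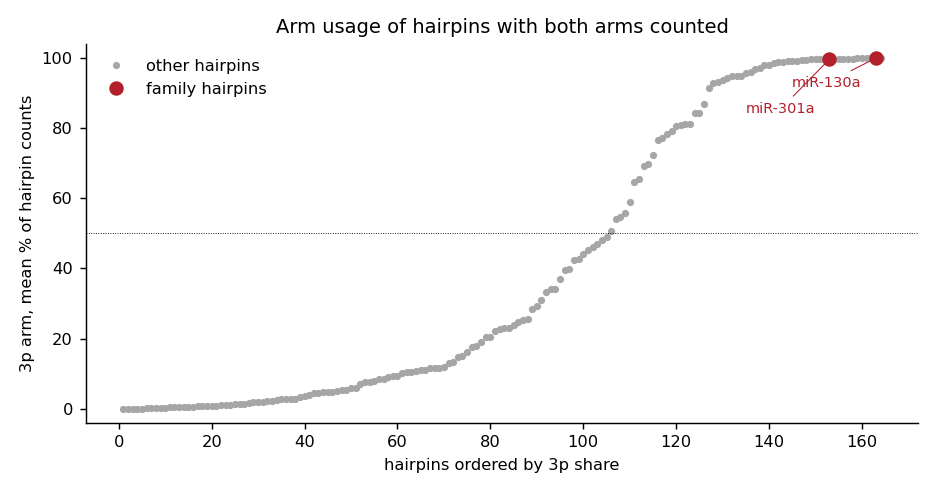
Mean share of the 3p arm, as percent of the counts of a hairpin over the 2 libraries, for the 164 hairpins ordered by that share; red points are the miR-130a and miR-301a hairpins and the dotted line is 50%. Both red points lie at the upper end, at 99.98% and 99.67%.

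The libraries were next compared name by name by setting each pair of counts against the library totals (two-sided exact binomial test), for the 1002 names whose mean count was 10 or more. This compares 2 libraries and not conditions. Of the 5 members tested, 3 differed at an adjusted p of 0.05, against 70.6% of all names (36.2% higher and 34.3% lower in replicate 2). The members were thus called about as often as other names. Of the 5, 1 also differed by at least 2-fold (miR-130b-3p), against 44% of all names. Their median absolute log2 ratio was 0.28, against 0.83 over all names tested. These medians are not matched for abundance, with which the spread narrows, and all names include 149 at 0 in either library. Names of like abundance are compared below.

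miR-130a-3p was higher in replicate 2, with a log2 ratio of 0.28 (exact 95% interval 0.20 to 0.35; exact binomial adjusted p = 2.09e-11). miR-301b-3p was lower, with a log2 ratio of -0.83 (-1.10 to -0.55; exact binomial adjusted p = 3.50e-09). miR-130b-3p was lower, with -1.54 (-2.03 to -1.08; exact binomial adjusted p = 2.16e-11). The 3p strands of both neighbouring genes on chromosome 16 were thus lower in replicate 2 and that of Mir130a higher, while miR-130b-5p, too rare for this test, had 0 counts in replicate 1 and 8 in replicate 2. miR-301a-3p had a log2 ratio of -0.02 (-0.05 to 0.01; exact binomial adjusted p = 0.155) and miR-301a-5p one of -0.07 (-0.55 to 0.42; exact binomial adjusted p = 0.839). The interval of miR-301a-3p is narrow, and that of miR-301a-5p, on 73 and 76 reads, is wide.

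Set against names of like abundance (within 1.5 times the mean count), the called differences were in the upper part of the ordinary spread. The absolute log2 ratio was smaller than that of miR-130a-3p in 22 of 27 such names, than that of miR-301b-3p in 46 of 59, and than that of miR-130b-3p in 86 of 105. For miR-301a-3p it was smaller in 2 of 20, and for miR-301a-5p in 7 of 129. Both strands of the miR-301a hairpin thus had smaller ratios than most names of their abundance. A single ratio per name does not measure steadiness, and the interval of miR-301a-5p is wide. None of the 5 members passed the test on counts reduced by a factor of 20.7, nor did any reach an unadjusted p of 0.05 in that exact binomial test; 1.6% of all names passed it. The factor is the mean ratio of the variance between these libraries to counting error for names whose mean count lay between 10 and 300. That range leaves out miR-130a-3p and miR-301a-3p and includes the other members tested. Division leaves few counts for the rarer members and for most rare names, so this test could hardly call them.

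**Figure D3:**
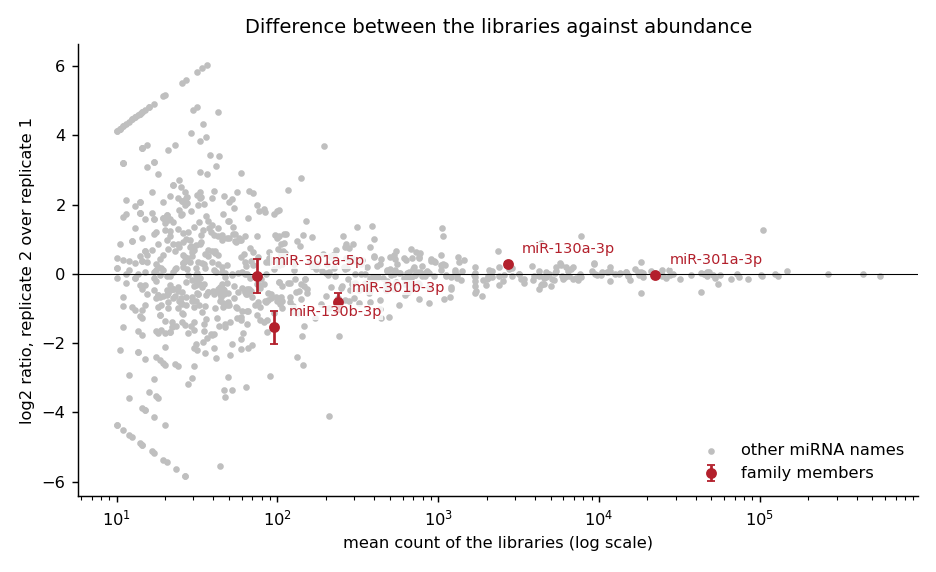
Log2 ratio of replicate 2 over replicate 1 against the mean count (log axis) for each miRNA name with counts in both libraries and a mean of at least 10; red points are the 5 family members with exact 95% intervals. The grey spread narrows with abundance, miR-301a-3p lies at -0.02, and miR-130b-3p at -1.54 and miR-301b-3p at -0.83 lie below 0; 149 names at 0 in either library are not drawn.

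Since the assignment of reads between like strands is not stated, the pairs were also summed. Over whole hairpins, Mir301 and Mir301b were identical at 70.7% of alignment columns, gaps included, and Mir130a and Mir130b at 56.6%. Mir130b had 60.6% with Mir301 and 59.6% with Mir301b. The Mir130a hairpin is listed at 64 bases and that of Mir130b at 82. Gaps from length thus lower the shares of Mir130a, and these values do not rank likeness. miR-130a-3p with miR-130b-3p had 2469 and 3130 counts, a log2 ratio of 0.22 (exact binomial adjusted p = 8.67e-08). miR-301a-3p with miR-301b-3p had 21804 and 23319 counts, a log2 ratio of -0.03 (exact binomial adjusted p = 0.0426), so the sum passed the threshold that miR-301a-3p alone did not. Summed, the miR-301 strands had 8.14 ± 0.976 times the counts of the miR-130 strands (SD, n = 2).

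Other miRNAs carry the same seed. RefSeq lists 7 mature strands with AGUGCAA at bases 2 to 8, of 1679 in all (0.417%), and 4 of them are not members. miR-721 was counted 5 times in replicate 1 and 18 times in replicate 2, or 1.32 and 4.37 CPM. miR-130c, miR-6341 and miR-6389 were listed in neither library. They are shown because they carry the family's seed.
miR-721: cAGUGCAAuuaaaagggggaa
miR-130c: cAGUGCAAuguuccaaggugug
miR-6341: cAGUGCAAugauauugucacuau
miR-6389: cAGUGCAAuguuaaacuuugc
Among names with a RefSeq sequence, the seed was thus represented almost wholly by the family's own strands. Listed names without a sequence could not be searched for it.

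Grouped by bases 2 to 8, the 1231 names with a RefSeq sequence (83.3% of 1477) formed 1051 seed groups. The group of miR-301a-3p, miR-130a-3p, miR-130b-3p and miR-721 had 6363 ± 17.9 CPM (SD, n = 2) and ranked 26 in each library. The groups just above it were led by miR-690 (10943 ± 61.4 CPM), miR-19b-3p (7831 ± 237 CPM) and miR-103-3p (6602 ± 256 CPM). Those just below it were led by miR-96-5p (6258 ± 95.9 CPM), miR-222-3p (5942 ± 401 CPM) and miR-3473b (5421 ± 185 CPM). The place of the group of miR-301a-3p was the same in both libraries, while the groups of miR-96-5p and miR-222-3p exchanged places below it. The group of miR-301a-3p is not the whole family. It lacks miR-301b-3p, which had no RefSeq sequence, and holds miR-721, which is not a member. Other groups may lack names for the same reason, so the ranks hold only among names with a sequence.

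Within its seed group miR-301a-3p held 88.9% of the mean CPM. Of the 13 groups with at least 3 names and 1000 CPM, 4 had a lead name with a larger share and 8 one with a smaller share, and the median was 65.9%. Names without a RefSeq sequence entered no group, abundant ones included. A lead share is thus too large where a name of the same seed is missing, and this order of groups holds only for the names grouped. A single strand was dominant to a like degree for miR-16-5p at 93.5%, miR-24-3p at 99.8% and miR-125a-5p at 85.1%, and much less so for let-7c-5p at 36.9%. These names, and miR-99b-5p in the plot of lead shares, were chosen after their values were seen.

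**Figure D4:**
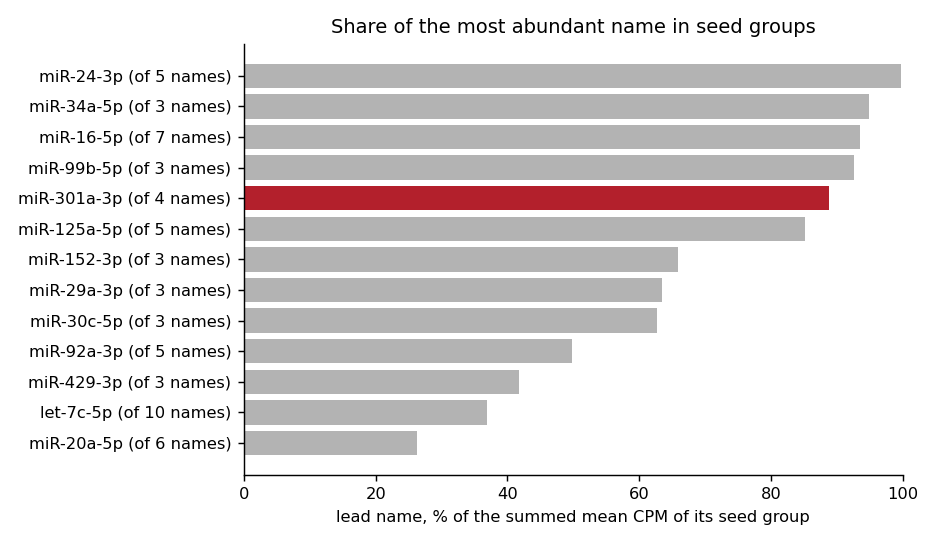
Share of the most abundant name in the summed mean CPM of its seed group, in percent, for the 13 groups with at least 3 names and 1000 CPM; the red bar is the family's group. miR-301a-3p held 88.9%, between miR-99b-5p at 92.6% and miR-125a-5p at 85.1%. Names without a RefSeq sequence entered no group.

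The family of miR-148 and miR-152 has a seed that overlaps the family's own. Its 3p strands hold AGUGCA, the bases 2 to 7 of miR-301a-3p, at bases 3 to 8. Capitals mark it here.
miR-152-3p: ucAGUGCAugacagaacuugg
miR-148a-3p: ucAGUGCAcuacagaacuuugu
miR-148b-3p: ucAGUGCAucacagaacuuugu
The shift by a single base gives these strands the seed CAGUGCA, which is a different seed group. Their family, 6 names of which 5 were counted, took 0.0985% of counts in replicate 1 and 0.121% in replicate 2. The family of miR-130 and miR-301 had 6.55 and 5.32 times its counts, or 5.93 ± 0.866 (SD, n = 2).

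The members of the family of miR-148 and miR-152 were more evenly spread. miR-152-3p held 65.7% and 66.0% of its 3p counts, with 2355 and 3129 counts, or 624 and 759 CPM. miR-148a-3p had 153 and 232 CPM and miR-148b-3p had 173 and 158 CPM. The 5p strands were miR-148b-5p with 26.2 and 55.3 CPM, miR-152-5p with 34 and 20 counts, and miR-148a-5p, not listed in either library. The main strand of this family was thus at the level of miR-130a-3p, the next most abundant member of the family of miR-130 and miR-301, and below miR-301a-3p in both libraries.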

How the data were processed

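miRNA reads were counted in 2 libraries of a single group. The authors deposited, per library, raw whole-number counts per mature miRNA name. The submitters' processing notes name cutadapt, Novoalign and mm10; versions, the miRNA reference and the handling of PCR copies are not given in the sources used here. Rows that name no miRNA (0.00265% and 0.000218% of counts) were left out. CPM was computed from miRNA totals. Shares have Wilson intervals and log2 ratios exact (Clopper-Pearson) ones. The exact binomial tests used Benjamini-Hochberg adjustment over all names or hairpins tested. Only the test between libraries was tried on simulated data. Those data held counting error alone, so they do not give its error rate in these more variable libraries. Tools were Python 3.11.15, scipy 1.17.1 and, for alternative scalings, edgeR 4.0.16 (TMM) and DESeq2 1.42.0 (size factors) in R 4.3.3. Other alternatives were totals, count minimums, thresholds, a draw of the deeper library to equal depth and each library alone. Text names were all members, their neighbours in mean CPM, names with the same seed, the family of miR-148 and miR-152, and leads of the 3 seed groups above and below. The members and lists were chosen with earlier results of these data known.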

Additional observations from a re-analysis of the deposited data

How the results depend on the processing

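The family's share of 0.644% became 0.751% when miR-31-5p was left out of the total and 0.711% when names with numbers from 2000 up were, since these totals are smaller, and 0.6431% after the deeper library was drawn to equal depth. Each library alone gave 0.6435% to 0.6446%. The 3p share of the family (99.683% to 99.696% by library) and the miR-130a-3p share of the 3p counts (9.60% to 11.6%) moved by less than the SD after the draw to equal depth. A single library always lies within the SD of a mean of 2, so taking each library alone could not test these shares. The exact binomial test between libraries called 3 of 5 members. It was 3 again with TMM factors, DESeq2 size factors and an adjusted p of 0.01, against 70.7%, 70% and 63.7% of all names. With no count minimum it was 4 of 7, miR-130b-5p among them (61.1% of all names). It was 2 of 3 from a mean of 100 counts (70.9%) and 2 of 3 with pairs summed (70.6%). It was 1 where a 2-fold ratio was also required (44%), and 0 with divided counts (1.6%), a divisor taken from these same libraries. The log2 ratios of all 5 members kept their direction under TMM factors and DESeq2 size factors, the alternatives that recompute a member's own ratio. The depth limits statements on the 5p strands, 3 of which had at most 8 counts. No paired analysis was possible because all libraries belong to 1 group.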
